A study of Mus musculus with 6 samples.

Results

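The Notch pathway genes described here are the 4 receptors *Notch1*, *Notch2*, *Notch3* and *Notch4*, the ligands *Jag1* and *Dll4*, and the transcriptional targets *Hey1*, *Hey2*, *Heyl* and *Hes1*. They were picked by symbol as a named set, with earlier results of these data known, and make up 10 of the 55426 genes in the expression table. Abdominal aortas of male mice on the C57BL/6J background were compared between 2 genotypes by RNA sequencing. The knockout mice (Prdm16SMKO, 3 libraries) carried *Prdm16* fl/fl and *Myh11*-CreERT2, a tamoxifen-inducible Cre recombinase that the *Myh11* promoter drives in vascular smooth muscle cells (VSMCs) from a cassette on the Y chromosome. The control mice (3 libraries) carried *Myh11*-CreERT2, are called wild-type controls in the study and are labelled control. Per the study's methods, male mice received tamoxifen at 75 mg/kg/day by gavage for 5 days at 8 to 10 weeks of age and entered experiments 2 weeks later, with no vascular injury in the mice sequenced here. The day on which the sequenced aortas were taken, and whether a library held 1 aorta or several, are not given in the sources used here, so the p-values measure the spread between libraries. PRDM16 is a transcriptional regulator, and the comparison asks what its deletion in VSMCs does to gene expression in the unchallenged aorta.

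Notch receptors are membrane proteins that are cut when they bind a Jagged or Delta-like ligand on a neighbouring cell. The freed intracellular domain enters the nucleus, joins the DNA-binding protein RBPJ and a Mastermind coactivator, and switches on genes of the HES and HEY families, which encode basic helix-loop-helix repressors. In arteries NOTCH3 is best known as the receptor of VSMCs, HEYL is also made by VSMCs and pericytes, and NOTCH1, NOTCH4, DLL4 and HEY1 are known from arterial endothelial cells. JAG1, made by both cell types, passes the signal from the endothelium to the medial layer and from one VSMC to the next.

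Fitted log2 fold changes of the 10 genes, Prdm16SMKO minus control, lay between −0.46 and 0.42. The 95% intervals reached −0.90 for *Heyl* and 1.03 for *Notch1*, so larger changes are not excluded. None of the 10 genes passed the test across all genes (0 called at an adjusted p under 0.05, where 0.355% of the 15775 tested genes were called). Fewer genes were called here than the study reports at the same adjusted threshold. The deleted gene *Prdm16* was not called here either (limma, Benjamini-Hochberg adjusted p = 0.376). A gene that was not called may therefore still have changed. *Notch3* and *Heyl*, the receptor and the target that are best known from mural cells, had the lowest fold changes of the 10, with mean levels in Prdm16SMKO aortas of 0.750 and 0.724 times those in control. The share of *Notch3* in all Notch receptor mRNA was 41.0% ± 0.492 (SD, n = 3) in control and 32.2% ± 2.32 (SD, n = 3) in Prdm16SMKO libraries. An exact two-sided permutation test gave p = 0.1 for this share, the smallest that 3 libraries against 3 allow. Relative to the mean of 8 VSMC markers, *Notch3* differed by −0.11 on the log2 scale (exact permutation test, p = 0.5). Among the other genes of the pathway *Lfng*, an enzyme that adds sugars to Notch receptors, showed the largest difference, from 2.01 ± 1.09 TPM (SD, n = 3) in control to a mean of 6.80 ± 1.73 TPM (SD, n = 3) in Prdm16SMKO aortas. TPM is a level per transcript length, which lets genes be compared within a library. Its total is the same in every library, so the level of a gene also depends on how much of the total other transcripts take up. Values per library are given throughout in the order of replicates 1, 2 and 3.

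Promoter windows are printed for *Notch3*, the receptor with the lowest fold change, for *Hey2*, which is a target, and for *Lfng*, because they differ in whether they hold the letters that RBPJ is known to bind. Each window runs from 250 bases before to 50 bases after the start of the gene, 5′ to 3′ on the strand of the gene, and the sequences are those of RefSeq on GRCm38.p6. The windows are chr17:32166841-32167140 on the minus strand for *Notch3*, chr10:30842734-30843033 on the minus strand for *Hey2* and chr5:140607091-140607390 on the plus strand for *Lfng*. Capitals mark GTGGGAA on either strand, the RBPJ letters, and CACGTG, the E-box letters that HES and HEY repressors can bind.
Notch3: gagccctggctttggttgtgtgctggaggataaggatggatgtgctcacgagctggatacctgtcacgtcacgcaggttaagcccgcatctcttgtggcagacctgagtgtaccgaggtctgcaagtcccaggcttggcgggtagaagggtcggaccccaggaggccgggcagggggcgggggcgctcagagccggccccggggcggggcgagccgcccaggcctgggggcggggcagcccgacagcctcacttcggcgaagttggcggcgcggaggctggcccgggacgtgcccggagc
Hey2: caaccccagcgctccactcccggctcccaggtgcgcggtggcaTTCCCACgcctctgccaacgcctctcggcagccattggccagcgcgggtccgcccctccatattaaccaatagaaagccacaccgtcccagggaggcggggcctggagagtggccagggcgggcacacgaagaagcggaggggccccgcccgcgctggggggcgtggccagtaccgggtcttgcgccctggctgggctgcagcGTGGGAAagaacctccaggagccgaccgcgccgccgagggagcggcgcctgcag
Lfng: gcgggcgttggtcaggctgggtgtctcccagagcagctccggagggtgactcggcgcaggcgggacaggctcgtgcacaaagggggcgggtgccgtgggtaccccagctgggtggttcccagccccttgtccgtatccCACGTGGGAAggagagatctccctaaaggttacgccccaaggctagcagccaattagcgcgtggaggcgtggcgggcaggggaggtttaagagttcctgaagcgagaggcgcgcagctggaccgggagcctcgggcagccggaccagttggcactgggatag
GTGGGAA was present at 2 places in the *Hey2* window, once on the strand opposite to the gene from base 44 to base 50 of the window, where the printed strand reads TTCCCAC, and once on the strand of the gene from base 247 to base 253. The *Lfng* window held it once, from base 142 to base 148, and CACGTG from base 139 to base 144, so that 3 bases belong to both. Neither string was present in the *Notch3* window, and GTGGGAA was also not in those of *Notch1*, *Notch2*, *Notch4*, *Jag1* and *Dll4*. Of all 32851 promoter windows of this length, 6.38% held GTGGGAA at least once, 0.256% held it 2 or more times, and 7.15% held CACGTG. A match of letters is a description of the window only. The table had windows for 7 of the 10 genes, and *Hey1*, *Heyl* and *Hes1* were the others.

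The libraries contained the tissue that their labels name. The VSMC markers *Acta2*, *Tagln* and *Myh11* and the endothelial markers *Pecam1* and *Cdh5* were well above 0 in all 6. The summed level of 8 VSMC markers ran from 15121 to 25621 TPM in control and from 11695 to 17888 TPM in Prdm16SMKO libraries, and 6 of the 8 were lower on average in Prdm16SMKO. The 10 endothelial markers summed to between 324 and 397 TPM in control and to 340, 563 and 373 TPM in Prdm16SMKO replicates 1, 2 and 3, so that replicate 2 was above all others. These markers did not move together, since 7 of the 10 were higher and 3 lower on average in Prdm16SMKO, with *Vwf* higher without overlap and *Cldn5* and *Erg* lower without overlap (log2 fold changes of 0.90, −0.54 and −0.50), and 199.98 TPM of the sum in replicate 2 was *Pecam1* and 107 TPM was *Vwf*. The 6 macrophage markers summed to between 57.8 and 88.0 TPM in control and to between 88.0 and 166 TPM in Prdm16SMKO, where the mean of every one of the 6 was higher, and the 14 immediate-early genes, which respond to handling of the tissue, to between 788 and 1141 TPM and to between 299.8 and 546 TPM. Tissue around the vessel was unevenly present, with 265 TPM of 5 neuron and Schwann cell markers and 69.0 TPM of 5 skeletal muscle markers in Prdm16SMKO replicate 1 (at most 71.3 and 15.1 TPM elsewhere), and 960 TPM of 6 adipocyte markers in Prdm16SMKO replicate 3 (at most 324 TPM elsewhere). The 45S ribosomal RNA transcripts made up 15.6% to 31.4% of a library and mitochondrial transcripts 15.8% to 27.4%. In aorta RNA, fewer cells of a type and less RNA per cell cannot be told apart, and the part of these differences in the results below was not tested except where values are given.

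*Prdm16* itself gave 33.4, 36.8 and 30.8 TPM in the control libraries against 20.8, 27.7 and 14.8 TPM in those of Prdm16SMKO. Every Prdm16SMKO library was below every control library, with a fitted log2 difference of −0.70 ± 0.23 (± SE, limma, Benjamini-Hochberg adjusted p = 0.376). The value counts all exons of the gene and all cells of the aorta.

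*Notch3* (ENSMUSG00000038146), the receptor of VSMCs and pericytes, lies on the minus strand of chromosome 17 of GRCm38 from 32120820 to 32166852. The control libraries held 33.0, 40.3 and 28.8 TPM of it and the Prdm16SMKO libraries 26.6, 24.4 and 25.6 TPM. Every Prdm16SMKO library was below every control library, and the Prdm16SMKO libraries lay close together. The control mean of 34.0 ± 5.82 TPM (SD, n = 3) compared with 25.5 ± 1.15 TPM (SD, n = 3) in Prdm16SMKO aortas, and the log2 fold change was −0.40, standard error 0.17, with a 95% interval from −0.77 to −0.02 (limma, unadjusted p = 0.0415, Benjamini-Hochberg adjusted p = 0.544). An exact two-sided permutation test gave p = 0.1, which is the smallest that 3 libraries against 3 can give. Fold changes here and below are Prdm16SMKO minus control on log2(TPM + 0.5), a scale on which the differences of weakly expressed genes come out too small. *Notch3* was the only one of the 10 genes whose groups did not overlap, where 12.8% of all tested genes did not, 5.76% being lower. An antisense gene, *Gm17276*, overlaps it on the other strand at a mean of 0.44 TPM.

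*Notch2*, a receptor made by VSMCs and many other cells, was at 27.1, 30.3 and 21.1 TPM in control and at 26.8, 30.0 and 22.5 TPM in Prdm16SMKO. The ranges of the groups were almost the same, and the log2 fold change was 0.02 with a 95% interval from −0.40 to 0.45 (limma, Benjamini-Hochberg adjusted p = 0.994). *Notch1*, the main Notch receptor of arterial endothelium, was at 9.82, 14.1 and 6.73 TPM in control and at 11.2, 12.6 and 16.5 TPM in Prdm16SMKO. Its lowest value was that of control replicate 3 and its highest that of Prdm16SMKO replicate 3, with the other libraries in between and mixed. The log2 fold change of *Notch1* was 0.42 with a 95% interval from −0.19 to 1.03 (limma, Benjamini-Hochberg adjusted p = 0.789). *Notch4*, a receptor of endothelial cells, was at 10.98, 14.6 and 12.7 TPM in control and at 15.1, 15.5 and 11.5 TPM in Prdm16SMKO. These groups overlapped as well, with a log2 fold change of 0.13 and a 95% interval from −0.29 to 0.55 (limma, Benjamini-Hochberg adjusted p = 0.942).

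*Jag1*, the Jagged ligand of endothelial cells and VSMCs, was at 30.2, 25.7 and 21.8 TPM in control and at 20.6, 25.6 and 21.7 TPM in Prdm16SMKO. Apart from control replicate 1, which was above all others, the libraries of both groups lay in one range. The log2 fold change of *Jag1* was −0.19 with a 95% interval from −0.58 to 0.21 (limma, Benjamini-Hochberg adjusted p = 0.887). *Dll4*, the Delta-like ligand of arterial endothelium, was at 3.15, 2.57 and 1.81 TPM in control and at 2.15, 1.88 and 2.08 TPM in Prdm16SMKO. The control libraries spanned the Prdm16SMKO libraries, with a log2 fold change of −0.22 and a 95% interval from −0.78 to 0.34 (limma, Benjamini-Hochberg adjusted p = 0.916).

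**Figure D1:**
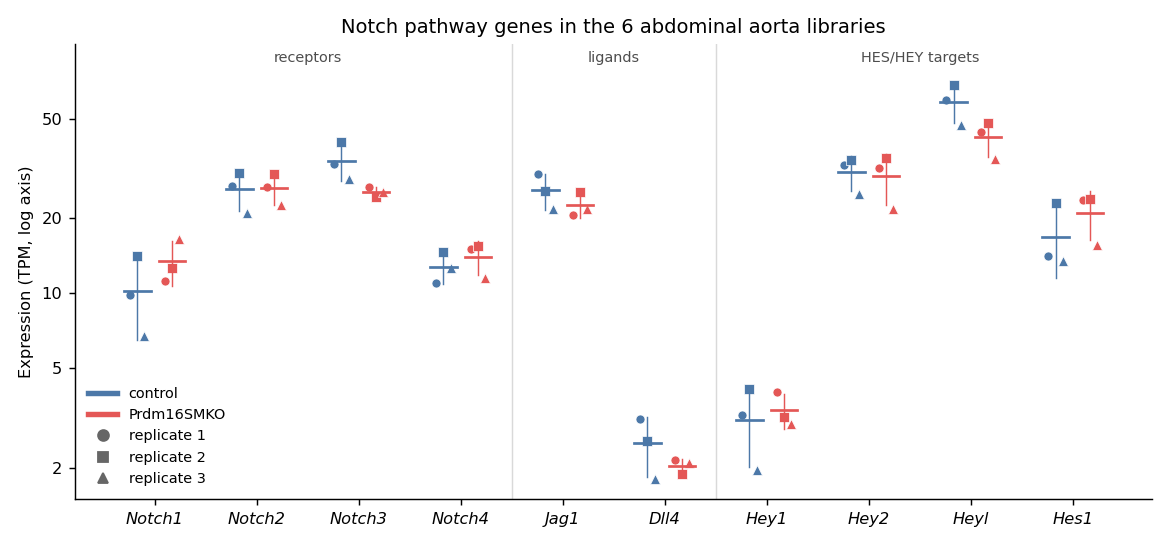
Expression of the 10 Notch pathway genes in TPM on a log axis, control in blue and Prdm16SMKO in red, with 1 symbol per library (circle, square and triangle for replicates 1, 2 and 3), a horizontal line at the mean of each group and a vertical line for ± 1 SD (n = 3). The groups overlap for every gene except *Notch3*, where the Prdm16SMKO libraries run from 24.4 to 26.6 TPM and the control libraries from 28.8 to 40.3 TPM.

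Of the targets, *Heyl* (ENSMUSG00000032744), a repressor made by VSMCs and pericytes, was the most abundant. It lies on the plus strand of chromosome 4 of GRCm38 from 123233556 to 123249875, 31.4 Mb from *Prdm16* on the same chromosome. The control libraries held 59.8, 68.4 and 47.5 TPM of *Heyl* and the Prdm16SMKO libraries 44.5, 48.2 and 34.5 TPM. The groups overlapped only in that Prdm16SMKO replicate 2 was slightly above control replicate 3. The control mean of 58.6 ± 10.5 TPM (SD, n = 3) compared with 42.4 ± 7.10 TPM (SD, n = 3) in Prdm16SMKO aortas, and the log2 fold change was −0.46, standard error 0.19, with a 95% interval from −0.90 to −0.02 (limma, unadjusted p = 0.0418, Benjamini-Hochberg adjusted p = 0.546). At an unadjusted p under 0.05 were 2 of the 10 genes, *Notch3* and *Heyl*, both lower in Prdm16SMKO. Of all tested genes 8.74% were at that threshold, 3.85% being lower. With limma's array weights, which give noisier libraries less say in the fit, there were 6 of the 10, *Notch4*, *Jag1*, *Dll4* and *Hes1* being the others, where 20.1% of all tested genes were, and no member was called.

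*Hey2*, a repressor made by arterial endothelial cells and VSMCs, was at 32.7, 34.2 and 25.0 TPM in control and at 31.8, 35.0 and 21.9 TPM in Prdm16SMKO. The groups covered nearly the same range, and the log2 fold change was −0.07 with a 95% interval from −0.55 to 0.42 (limma, Benjamini-Hochberg adjusted p = 0.985). *Hes1*, a repressor that Notch and other signals induce in many cell types, was at 14.1, 23.0 and 13.5 TPM in control and at 23.7, 24.0 and 15.6 TPM in Prdm16SMKO. Control replicate 2 lay with the higher Prdm16SMKO libraries and Prdm16SMKO replicate 3 with the lower control libraries. The log2 fold change of *Hes1* was 0.33 with a 95% interval from −0.25 to 0.90 (limma, Benjamini-Hochberg adjusted p = 0.847). *Hey1*, a repressor known from arterial endothelium, was at 3.24, 4.12 and 1.95 TPM in control and at 4.02, 3.19 and 2.99 TPM in Prdm16SMKO. The control libraries were both the highest and the lowest, and the log2 fold change was 0.15 with a 95% interval from −0.46 to 0.77 (limma, Benjamini-Hochberg adjusted p = 0.955).

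**Figure D2:**
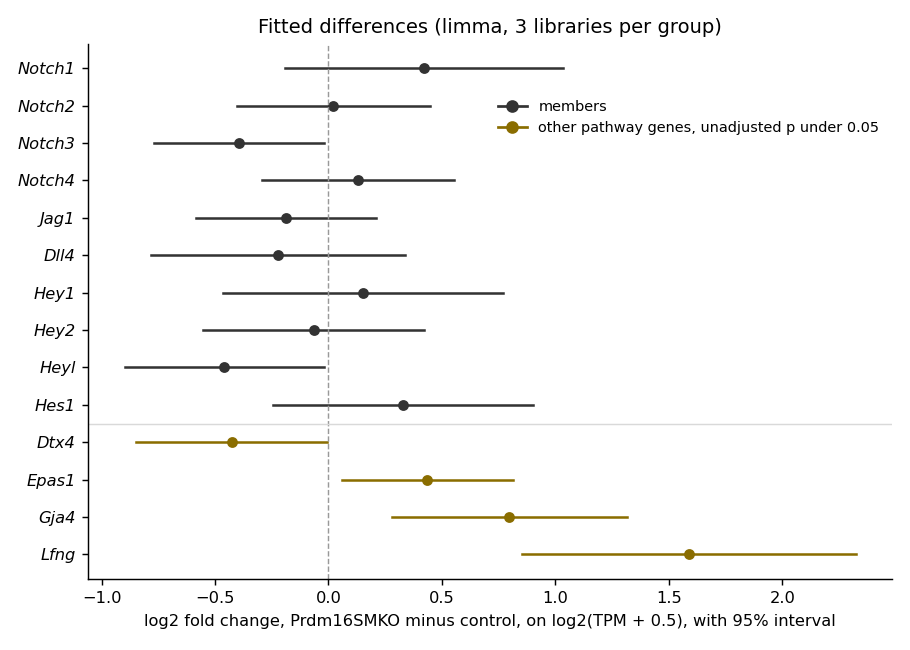
Fitted log2 fold change, Prdm16SMKO minus control on log2(TPM + 0.5), with its 95% interval (limma, 3 libraries per group), for the 10 genes in dark grey and for the 4 other pathway genes with an unadjusted p under 0.05 in brown. The intervals of *Notch3* (−0.77 to −0.02) and *Heyl* (−0.90 to −0.02) end just below 0, those of the 8 other members include 0, and that of *Lfng* runs from 0.86 to 2.32.

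Over the 10 genes the fitted log2 fold change was above 0 for 5 and below 0 for 5, with a median of −0.02, beside a median of 0.02 and a share of 45.8% below 0 over all tested genes. The 4 receptors had a median of 0.08, with 1 of the 4 below 0, the 4 targets had a median of 0.04 with 2 of the 4 below 0, and both ligands were below 0. The mRNAs of the 4 receptors together summed to 80.9, 99.3 and 69.3 TPM in control and to 79.7, 82.5 and 76.2 TPM in Prdm16SMKO, which overlapped. In order of mean level over the 6 libraries *Heyl* came first at 50.5 TPM and was above *Hey2*, the next gene, in all 6. *Hey2*, *Notch3*, *Notch2* and *Jag1* followed with means from 24.3 to 30.1 TPM, and their order was not the same in all libraries. *Notch3* was above *Notch2* in 3 of 3 control libraries and in 1 of 3 Prdm16SMKO libraries. *Hey2* was above *Notch3* in 0 of 3 control and 2 of 3 Prdm16SMKO libraries. *Hes1* at 19.0 TPM was above *Notch4* at 13.4 TPM in all 6 libraries, *Notch4* above *Notch1* in 5 of 6, and *Hey1* at 3.25 TPM above *Dll4* at 2.27 TPM in all 6.

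A share within a library does not depend on how the library was scaled. *Notch3* made up 40.8%, 40.6% and 41.5% of the summed TPM of the 4 receptors in control and 33.4%, 29.5% and 33.6% in Prdm16SMKO. It was the most abundant receptor in every control library, and its share was lower in 3 of 3 Prdm16SMKO libraries, with a mean difference of −8.78 percentage points (exact two-sided permutation test over the libraries, p = 0.1, the smallest possible, unadjusted for the 4 shares compared). *Notch1* took 12.1%, 14.2% and 9.71% in control and 14.0%, 15.3% and 21.7% in Prdm16SMKO, and its groups overlapped (exact permutation test, p = 0.2). The mean share of *Notch2* differed by 1.7 points and that of *Notch4* by 2.09 points, both higher in Prdm16SMKO (exact permutation tests, p = 0.6 and 0.2). The shares of a library add up to a fixed total, so a lower share of 1 receptor raises the others.

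The same was done for the HES and HEY genes after their values had been seen. *Heyl* made up 54.4%, 52.7% and 54.0% of the summed TPM of *Hey1*, *Hey2*, *Heyl* and *Hes1* in control and 42.8%, 43.7% and 46.0% in Prdm16SMKO. *Hes1* made up 12.9%, 17.7% and 15.3% in control and 22.8%, 21.7% and 20.8% in Prdm16SMKO. Neither share overlapped between the groups, with mean differences of −9.56 points for *Heyl* and 6.46 points for *Hes1* (exact two-sided permutation tests, p = 0.1 for each, unadjusted for 4 shares and the smallest possible). The shares of *Hey2* and *Hey1* were higher in Prdm16SMKO by 2.3 and 0.80 points on average and overlapped (exact permutation tests, p = 0.2 and 0.3).

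**Figure D3:**
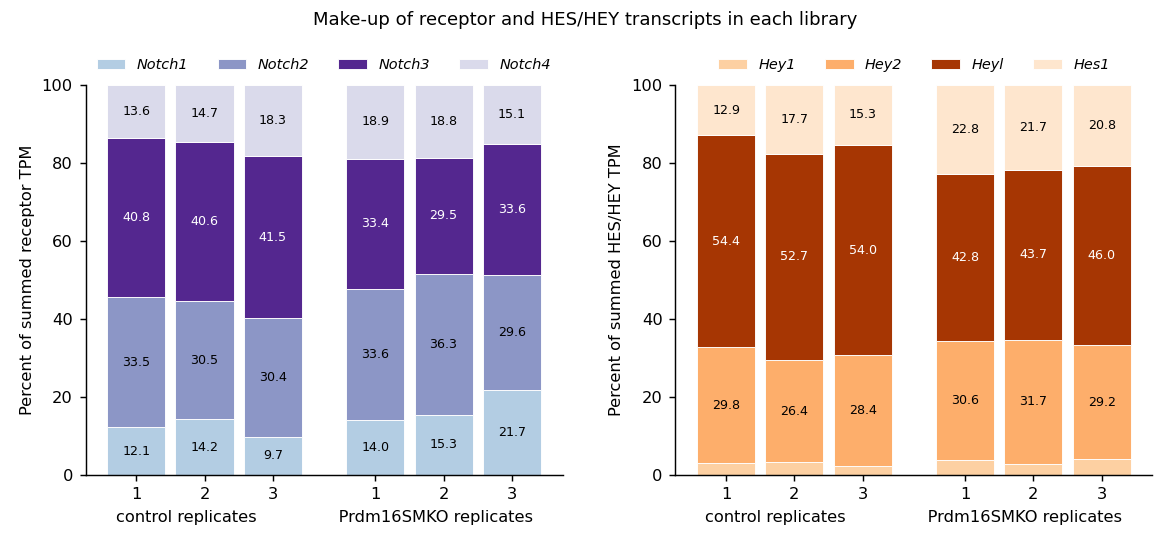
Make-up of the receptor mRNA (left) and of the HES/HEY mRNA (right) in each of the 6 libraries, as the percent of the summed TPM of the 4 genes shown, with the percent printed in each segment above 8%. The *Notch3* segment runs from 40.6% to 41.5% in control and from 29.5% to 33.6% in Prdm16SMKO libraries, and the *Heyl* segment from 52.7% to 54.4% and from 42.8% to 46.0%.

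The levels were then set against markers of the cells in which these genes are known. The log2 level of *Notch3* minus the mean log2 level of the 8 VSMC markers differed by −0.11 between Prdm16SMKO and control (exact two-sided permutation test, p = 0.5), and that of *Heyl* by −0.18 (p = 0.2). The groups overlapped for both genes on this scale, where the mean log2 level of the VSMC markers themselves differed by −0.28 (exact permutation test, p = 0.5). Against the mean of the 10 endothelial markers, *Notch1* differed by 0.25, *Notch4* by −0.04, *Dll4* by −0.40 and *Hey1* by −0.02 (exact permutation tests, p = 0.6, 0.9, 0.5 and 1), and the markers themselves by 0.17 (p = 0.4), a mean over markers that include *Vwf* on the one side and *Cldn5* and *Erg* on the other. The groups overlapped for all 4 of these genes as well.

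The rest of the pathway was described with a list of 60 other genes, from ligands and receptor processing to co-repressors and further targets. Of these, 53 passed the expression minimum of a mean of 0.5 TPM, and *Dll3*, *Dlk2*, *Hes2*, *Hes3*, *Hes5*, *Hes7* and *Helt* did not. None of the 53 was called (0.355% of all tested genes were), 27 had a log2 fold change above 0 and 26 below 0, and the median was 0.01, beside 0.02 over all tested genes. At an unadjusted p under 0.05 were 4 of the 53, 3 higher and 1 lower in Prdm16SMKO, where 8.74% of all tested genes were (4.88% higher and 3.85% lower). The groups did not overlap for 8 of the 53, 6 higher and 2 lower, where 12.8% of all tested genes did not (7.02% higher and 5.76% lower).

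*Lfng* (ENSMUSG00000029570), the lunatic fringe glycosyltransferase that changes which ligands a Notch receptor answers to, lies on the plus strand of chromosome 5 of GRCm38 from 140607320 to 140615545. The control libraries held 1.41, 3.27 and 1.36 TPM of *Lfng* and the Prdm16SMKO libraries 7.5, 8.07 and 4.83 TPM. All Prdm16SMKO libraries were above all control libraries, with a log2 fold change of 1.59, standard error 0.32, and a 95% interval from 0.86 to 2.32 (limma, unadjusted p = 9.17e-04, Benjamini-Hochberg adjusted p = 0.1004). Its promoter window is the one in which GTGGGAA and CACGTG overlap. Its relatives *Mfng* and *Rfng* had log2 fold changes of 0.66 and −0.07 (limma, Benjamini-Hochberg adjusted p = 0.628 and 0.969), and the groups overlapped for both.

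*Gja4*, a gap junction connexin of arterial endothelium, lies on chromosome 4, 27.3 Mb from *Prdm16*. Its level was 14.6, 20.1 and 13.8 TPM in control and 28.1, 36.3 and 21.7 TPM in Prdm16SMKO. The groups did not overlap, and the log2 fold change was 0.80 ± 0.23 (± SE, limma, unadjusted p = 0.00695, Benjamini-Hochberg adjusted p = 0.295). The highest value was that of Prdm16SMKO replicate 2, the library with the highest endothelial marker sum. The lowest was that of control replicate 3, which had the next highest sum at 397 TPM. A link between *Gja4* and the endothelial markers was not tested. With array weights *Lfng* and *Gja4* were called (Benjamini-Hochberg adjusted p = 0.00735 and 0.0251). *Epas1*, a hypoxia-inducible transcription factor gene, was the most abundant gene among the further targets, at 102, 124 and 101 TPM in control and 143, 172 and 129 TPM in Prdm16SMKO. Its groups did not overlap either, with a log2 fold change of 0.44 ± 0.17 (± SE, limma, unadjusted p = 0.0276, Benjamini-Hochberg adjusted p = 0.482). *Dtx4*, a Deltex E3 ubiquitin ligase, was at 4.69, 4.33 and 4.72 TPM in control and at 2.91, 3.58 and 3.37 TPM in Prdm16SMKO. This gene was lower in every Prdm16SMKO library than in every control library, with a log2 fold change of −0.43 ± 0.18 (± SE, limma, unadjusted p = 0.0471, Benjamini-Hochberg adjusted p = 0.560).

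**Figure D4:**
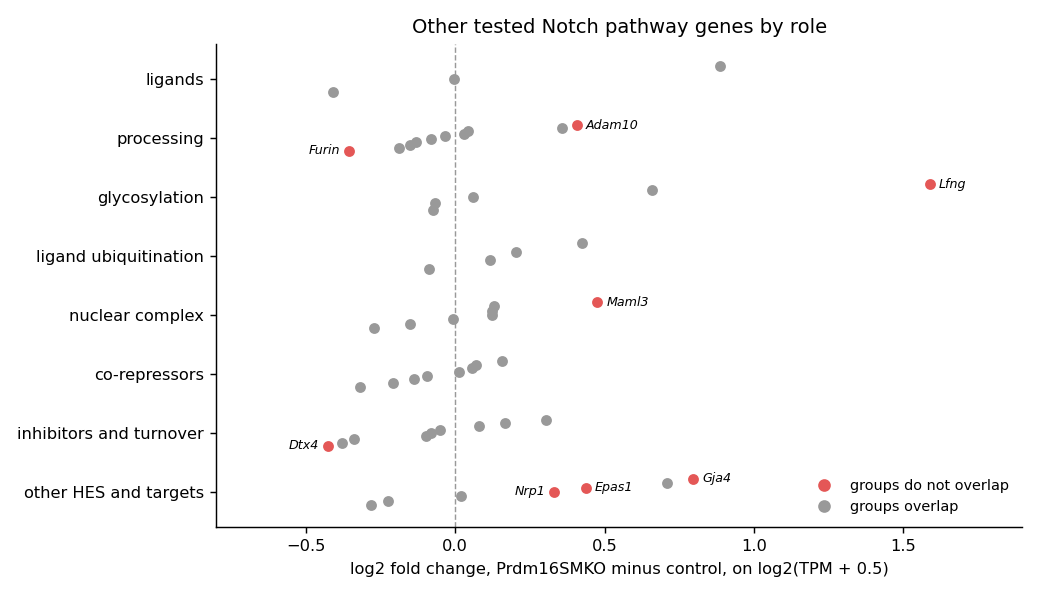
Fitted log2 fold change, Prdm16SMKO minus control on log2(TPM + 0.5), of the 53 tested pathway genes other than the 10 members, 1 point per gene in rows by role, in red where the 3 Prdm16SMKO libraries do not overlap the 3 control libraries. *Lfng* at 1.59 stands to the right of all others, and every role has points on both sides of 0.

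By role, all 10 processing, 5 glycosylation, 4 ligand ubiquitination, 7 nuclear complex and 8 co-repressor genes passed the expression minimum. Of the ligands other than *Jag1* and *Dll4*, *Jag2* had the highest mean, and it averaged 8.25 ± 0.325 TPM (SD, n = 3) in the control libraries against 6.34 ± 2.35 TPM (SD, n = 3) in Prdm16SMKO (limma, log2 fold change −0.41, Benjamini-Hochberg adjusted p = 0.749). The 10 genes of receptor processing, which encode furin, the ADAM proteases and γ-secretase, had a median log2 fold change of −0.06. In this group *Adam10*, the protease that makes the first ligand-induced cut, was higher without overlap at 15.7, 19.8 and 17.3 TPM in control and 20.6, 28.9 and 21.5 TPM in Prdm16SMKO, and *Furin*, which cleaves the receptor precursor, was lower without overlap (limma, log2 fold changes of 0.41 and −0.36, Benjamini-Hochberg adjusted p = 0.591 and 0.588). The study, whose text does not name its model, lists *Adam10* among its upregulated genes. In cultured rat VSMCs, however, the study reports that *Adam10* expression did not depend on PRDM16 when *Prdm16* was knocked down. The γ-secretase subunit gene *Psenen* had the highest mean of the 10 processing genes at 54.6 TPM over the 6 libraries and a log2 fold change of −0.13. *Poglut1*, which adds glucose to the receptor, led the 5 glycosylation genes at a mean of 21.8 TPM with a log2 fold change of −0.07, and *Mib1* and *Mib2*, ligases that send ligands into the cell, were the most abundant of the 4 ligand ubiquitination genes at almost equal means of 28.4 and 28.3 TPM with −0.09 and 0.12. The 7 genes of the nuclear complex had a median log2 fold change of 0.12.

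In the nucleus *Rbpj*, which encodes the DNA-binding protein, averaged 21.6 ± 3.38 TPM (SD, n = 3) in the control libraries against 23.5 ± 3.05 TPM (SD, n = 3) in Prdm16SMKO. *Snw1*, a coactivator and splicing factor, had the highest mean of the complex at 31.1 TPM with a log2 fold change of 0.12. *Maml3*, a Mastermind coactivator, was higher without overlap at a low level, with a mean of 1.43 TPM in control and 2.20 TPM in Prdm16SMKO (limma, log2 fold change 0.48, Benjamini-Hochberg adjusted p = 0.673). The 8 co-repressor genes were led by *Ncor1* at a mean of 88.8 TPM and had a median log2 fold change of −0.04, and the groups overlapped for all 8. The 9 inhibitor and turnover genes were led by the Deltex gene *Dtx3* at 40.5 TPM, with a log2 fold change of −0.38 (limma, Benjamini-Hochberg adjusted p = 0.688), and had a median of −0.08. The 7 tested genes among the other HES genes and further targets had a median of 0.33, beside 0.02 over all tested genes. Those higher without overlap were *Gja4*, *Epas1* and *Nrp1*, where 7.02% of all tested genes were. None of the 7 was called in the reported fit. *Nrp1*, a coreceptor for VEGF, had a log2 fold change of 0.33 (limma, Benjamini-Hochberg adjusted p = 0.628). Among the genes known from arterial endothelium, *Gja5* was at 30.8 TPM in Prdm16SMKO replicate 2 and at 7.58 to 12.3 TPM in the other libraries.

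*Notch3* had the smallest unadjusted p of the 10 genes, and the genes with the most similar pattern over the 6 libraries were looked up among tested genes that averaged 5 TPM or more. Likeness was the root mean square difference of log2(TPM + 0.5), each gene centred on its own mean. The closest were *Trp53inp2*, *Aoc3* and *Dock8*, at 0.0442, 0.0588 and 0.0596 log2 units. *Aoc3*, an amine oxidase abundant in VSMCs and adipocytes, was at 129, 163 and 104 TPM in control and at 99.9, 96.4 and 94.4 TPM in Prdm16SMKO. All 3 genes were, like *Notch3*, highest in control replicate 2 and lower in every Prdm16SMKO library than in every control library. They were picked for likeness over these same libraries, so this pattern follows from the choice.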

How the data were processed

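Polyadenylated RNA of 6 abdominal aorta libraries was read as 151 bp pairs, with an average depth per library of 40 M pairs per the labels. The authors deposited TPM values with 2 decimals for 55426 genes. The submitters' processing notes name cutadapt 2.3, STAR 2.7.8a, RSEM 1.3.3 and GRCm38 without their roles, and the annotation and strand setting are not given in the sources used here. TPM keeps no read counts, so the depth of each library and the counting error are unknown.

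Genes that averaged 0.5 TPM or more (15775) were compared on log2(TPM + 0.5) with limma 3.58.1 in R 4.3.3, by moderated variances with a trend. Two-sided p-values were adjusted over all tested genes (Benjamini-Hochberg), and those under 0.05 after adjustment count as called. Shares and marker-relative levels were compared by exact two-sided permutation tests over libraries. Gene positions are from GENCODE M21 on GRCm38. Python 3.11.15 was used for tables and figures.

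The 10 members and all lists were chosen with earlier results of these data known, and no set test was run. Named were all members, *Prdm16*, pathway genes with an unadjusted p under 0.05, the most abundant gene of each role and the 3 genes most like the member with the smallest p. Named after their values were seen were the other genes without overlap, those below the minimum, *Mfng*, *Rfng*, *Mib2*, *Rbpj*, *Gja5* and the endothelial markers given singly. The promoters of genes outside the HES and HEY families and the HES/HEY shares were also chosen after the data were seen. Alternatives were pseudocounts of 0.1 and 1, no minimum or a minimum of 2 TPM, size factors, quantile normalization, rescaling without mitochondrial and 45S transcripts, no variance trend, robust variance, array weights, a replicate block and each library left out in turn.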

Additional observations from a re-analysis of the deposited data

How the results depend on the processing

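None of the 10 members was called under any of the 17 alternatives, and the number with a log2 fold change below 0 was 5 as reported and 4 to 7 under them. The direction was kept under all 17 for *Notch1*, *Notch3*, *Notch4*, *Jag1*, *Dll4*, *Heyl* and *Hes1*. For *Notch3* the log2 fold change ran from −0.51 to −0.27 and the adjusted p from 0.112 to 0.900, and for *Heyl* from −0.60 to −0.32 and from 0.09998 to 0.918 (limma, Benjamini-Hochberg). The others ran from 0.17 to 0.67 (*Notch1*), 0.03 to 0.33 (*Notch4*), −0.37 to −0.07 (*Jag1*), −0.50 to −0.07 (*Dll4*) and 0.19 to 0.57 (*Hes1*). The number of members at an unadjusted p under 0.05, 2 as reported, was 6 with array weights, 1 without Prdm16SMKO replicate 2, and 0 without a variance trend and without control replicate 1, Prdm16SMKO replicate 1 or Prdm16SMKO replicate 3. Without control replicate 2 the 2 were *Notch1* and *Hes1*, both higher in Prdm16SMKO (limma, unadjusted p = 0.0273 and 0.0384), and not *Notch3* or *Heyl*. With a library left out, *Notch3* was under 0.05 only without control replicate 3. *Heyl* was under it only in that fit and without Prdm16SMKO replicate 2, so the reported pair depended on single libraries. Values near 0 turned: *Notch2* was −0.0087 with array weights and between −0.12 and 0.13 with a library left out, *Hey1* between −0.10 and 0.36 and *Hey2* between −0.20 and 0.13. With a library left out, the differences from the endothelial markers ran from −0.048 to 0.45 for *Notch1*, −0.25 to 0.11 for *Notch4* and −0.31 to 0.15 for *Hey1*, which was 0.0020 with a pseudocount of 0.1, and from −0.62 to −0.15 for *Dll4*. Those from the VSMC markers ran from −0.25 to −0.03 for *Notch3* and −0.25 to −0.10 for *Heyl*. The share of *Notch3* differed by −9.49 to −7.44 points, that of *Heyl* by −10.5 to −8.86 that of *Hes1* by 5.23 to 7.66, *Notch1* by 2.66 to 6.47, *Notch2* by 0.12 to 3.496, *Notch4* by 1.10 to 3.48, *Hey1* by 0.52 to 1.15 and *Hey2* by 1.39 to 3.08. Array weights called 2 of the other pathway genes, *Lfng* (log2 fold change 1.91, adjusted p = 0.00735, range over alternatives 0.00735 to 0.335) and *Gja4* (0.95, adjusted p = 0.0251, range 0.0251 to 0.645), and all other alternatives called 0.

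Over all genes 56 were called, 51.8% of them higher. The number was 10 with no expression minimum, 153 with size factors (39.2% higher), 129 with quantile normalization (35.7% higher), 123 rescaled without mitochondrial and 45S transcripts, 33 without a variance trend, 112 with robust variance and 494 with array weights, and the cause of these differences was not tested. It ran from 5 to 61 with a library left out, with 17, 5 and 17 without control replicates 1, 2 and 3 and 28 without Prdm16SMKO replicate 2. Without control replicate 2 the median of all genes was 0.11. Libraries with the same replicate number had deviations over all tested genes that correlated at −0.131, −0.110 and 0.019. Pairs with different numbers ran from −0.167 to 0.242. Such correlations cannot tell whether libraries of the same number were handled together, which the labels do not say. With the replicate block 4 of all genes and 0 members were called. The block cannot change the mean difference of the *Notch3* share, which is −8.78 points with or without it. An exact permutation test within replicate numbers gave p = 0.25 for this share, the smallest possible there, against 0.1 without the block. The unadjusted p of *Heyl* was then 0.00606 and that of *Notch3* 0.0448 (limma, Benjamini-Hochberg adjusted p = 0.305 and 0.492). The depth of a library is unknown, so what depth limits could not be computed.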
